A study of Mus musculus with 18 samples.

Results

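Cortex microglia of the mouse were compared between postnatal day 7 (P7) and adulthood on 6 of the 18 arrays of the series, 3 arrays at each age. The members are the 6 arrays whose titles name cortex microglia at P7 or in the adult, and all 22180 genes that could be named from a single-symbol probe set were read on them. The other 12 arrays hold cortex microglia at P3 and corpus callosum microglia at P3, P7 and in the adult, so that there are 6 groups of 3. All mice were untreated, healthy C57Bl/6 animals kept under specific-pathogen-free conditions. The 2 cortex groups therefore differ, as far as the labels say, only in age. No source used here states the age of the adults, the sex of the mice, or whether an array holds 1 animal or a pool, so p-values measure the spread between arrays, which may be technical in part. Brain cells were enriched on a Percoll gradient and sorted as CD45+, CD11b+ and Gr1-, a gate that keeps microglia and can also keep other brain macrophages and monocytes. In sorted bulk RNA, fewer cells of a kind and less RNA per cell cannot be told apart.

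Microglia are the macrophages of the brain parenchyma. They enter the brain before birth, multiply strongly in the first weeks of life and then form a long-lived population that renews itself slowly. In the growing cortex they remove dying cells and synapses, and in the adult they survey the tissue with fine processes, hold a gene programme that depends on TGF-beta and CSF1 receptor signals, and respond to injury or infection. The comparison of P7 with adult cells asks how the transcripts of one cell population in one region differ between these stages.

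All values are log2 microarray signals, so a difference of 1 is a 2-fold difference, and differences are written as adult minus P7. A gene is called when limma, fitted to all 18 arrays with a mean for each group, gave a Benjamini-Hochberg adjusted p under 0.05 over the 22180 genes in a two-sided test. The medians of the 6 cortex arrays lay between 5.61 and 5.67, and where the readings of an age lie under them, the size of a difference or fold depends on the background. The homeostatic microglia markers averaged 10.44 to 10.97 on the 6 arrays. The marker lists of neutrophils, lymphocytes, neurons, astrocytes, oligodendrocytes, their precursors, endothelium and red cells averaged between 4.64 and 5.74. Adult replicate 1 resembled the others least: its correlation with the 17 other arrays averaged 0.938, against 0.956 to 0.964 for the other 5 cortex arrays. The first principal component of the 6 arrays held 57.2% of the variance and separated the ages. The second, with 20.6%, set replicate 1 apart from replicates 2 and 3 at both ages. Its scores were 33 against -18 and -20.4 in the adult and 14.1 against -6.8 and -1.9 at P7. Replicate 1 of both ages carried high Xist, and replicates 2 and 3 of both ages carried high Kdm5d (Xist 11.84 and 11.08 on replicate 1, 4.07 to 4.93 on the others).

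Adult cortex microglia carried far less of the transcripts of cell division than P7 cells, and less of many transcripts for ribosomal proteins, sterol synthesis and lipid handling. The genes that were higher in the adult rose by smaller amounts on the whole, and several surface receptors, TGF-beta signalling genes and immediate early factors were among them. Of the 22180 genes, 2264 were called (10.2%), with 899 higher in the adult (4.05%) and 1365 lower (6.15%). The median difference was 0.67 among the called higher genes and -0.76 among the called lower genes, against 0.03 over all genes. The asymmetry grew with size. Differences of at least 1 log2 unit were called for 578 genes (2.61%), with 153 higher (0.69%) and 425 lower (1.92%), and differences of at least 2 log2 units for 9 higher and 134 lower genes. The 6 arrays were fully separated by age for 2248 of the 2264 called genes, while 27.3% of all genes were separated in one direction or the other. The count of higher genes was 561 without P7 replicate 3 and 592 without adult replicate 3. Calls were made for 17.6% of the genes above the overall median signal and for 1.7% of the others. The list counts below are to be read beside these shares and the 10.2% of all genes.

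**Figure D1:**
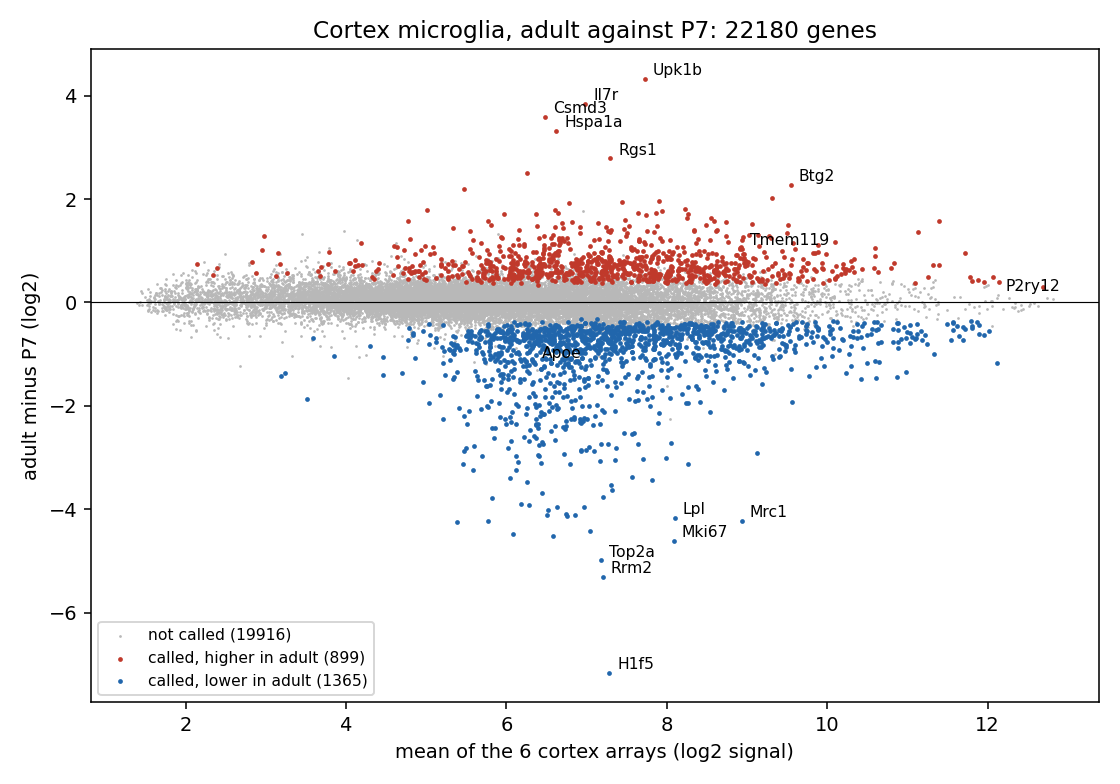
Adult minus P7 difference (y axis, log2) against the mean signal of the 6 cortex arrays (x axis, log2) for 22180 genes, each a point, with called genes in colour. The lower side reaches -7.16 (H1f5), with 134 genes called below -2, whereas 9 genes were called above 2.

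**Figure D2:**
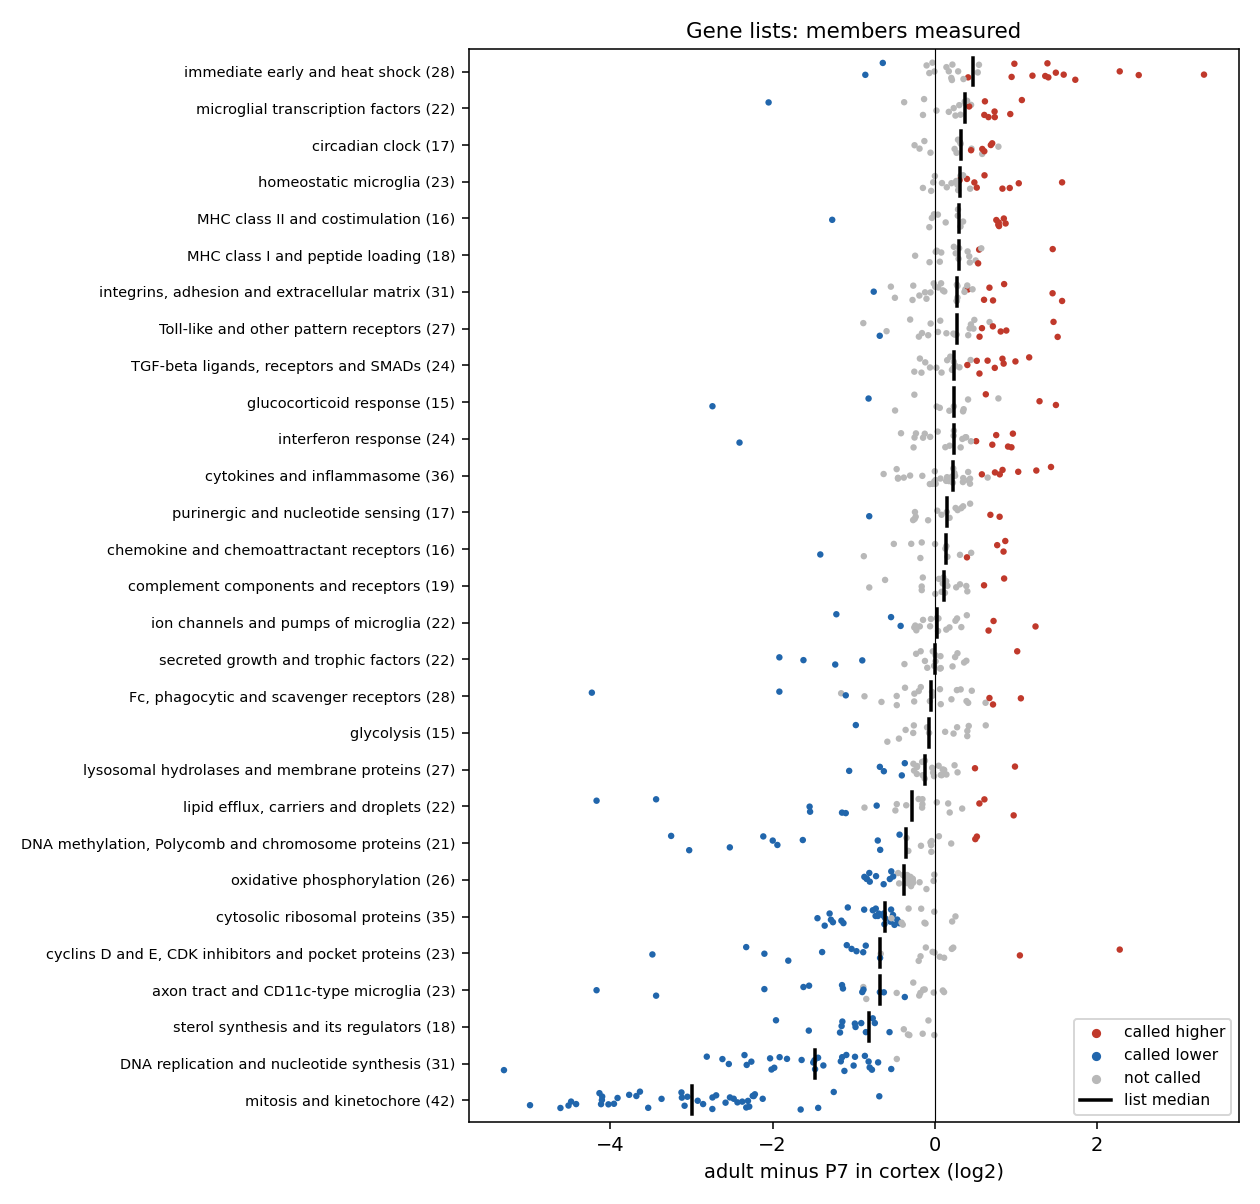
Adult minus P7 difference (x axis, log2) of the measured members of 29 gene lists (y axis, number of members in brackets), 1 point a gene, with a black bar at each list's median. Mitosis (median -2.99) and DNA replication (-1.48) lie farthest to the left, and immediate early and heat shock genes have the highest median (0.47).

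All 42 measured genes of mitosis and the kinetochore fell, against 6.15% of all genes, with a median of -2.99 and single differences from -4.99 to -0.68. Topoisomerase II alpha, Top2a, which untangles replicated chromosomes, read 9.53, 9.82 and 9.69 on the P7 arrays and 4.94, 4.85 and 4.27 on the adult arrays. The adult readings all lay under the median signal of an array and the P7 readings far over it. This was a fall of 4.99 ± 0.23 log2 units (SE, n = 3 and 3, adjusted p = 7.69e-11), whose size depends on the background. Mki67, the proliferation antigen Ki-67 that coats mitotic chromosomes, read 10.25, 10.53 and 10.41 at P7 and 5.92, 5.55 and 5.88 in the adult, 24.5-fold lower (adjusted p = 1.19e-10). Kinetochore and checkpoint genes fell alike, among them Knl1 (-4.51), Bub1 (-4.48) and Nuf2 (-4.13). So did the ubiquitin-conjugating enzyme of the anaphase-promoting complex, Ube2c (-4.42), survivin, Birc5 (-4.11), the spindle motor Kif11 (-4.10) and the cytokinesis scaffold Anln (-4.10). Cdk1, the kinase that drives entry into mitosis, went from 8.96, 9.11 and 9.13 to 5.37, 5.52 and 5.72, a fall of 3.53 ± 0.16 (SE, adjusted p = 7.69e-11). Its cyclin partner Ccna2 fell by 3.77, and the transcription factor Foxm1, which activates mitotic genes, by 2.24. Mybl2 had the smallest fall of the list (-0.68) and lost its call without P7 replicate 1 or adult replicate 2. The mean over the 42 genes was 8.30 to 8.45 on the P7 arrays and 5.24 to 5.38 on the adult arrays, and it was 7.90 to 8.15 on the P3 cortex arrays, whose labels carry another prefix, so that age and array set cannot be told apart there. In the corpus callosum, 42 of the 42 were called lower as well, with a median of -2.66.

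DNA replication and nucleotide synthesis followed, with 30 of 31 measured genes lower and a median of -1.48. Rrm2, the regulatory subunit of ribonucleotide reductase that is made for S phase, read 9.83, 9.77 and 9.97 at P7 and 4.51, 4.64 and 4.48 in the adult. The ages were far apart on every array, with a fall of 5.31 ± 0.22 (SE, adjusted p = 3.22e-11). Its size depends on the background, since the adult readings lay under the array median. It also depends on the processing, since the Rrm2 difference lay between -5.36 and -3.67 over the 15 alternatives. The catalytic subunit, Rrm1, which is also used for repair outside S phase, fell by 2.54 ± 0.17 (SE). Mcm6, a subunit of the replicative helicase, read 8.76, 8.82 and 8.75 at P7 and 6.13, 5.92 and 5.85 in the adult, 7.02-fold lower (adjusted p = 5.32e-10). Its partners Mcm2, Mcm3, Mcm4, Mcm5 and Mcm7 differed by -1.48, -1.44, -2.32, -1.82 and -1.11. The primase Prim1 fell by 2.62 and the sliding clamp Pcna by 1.0. Pole, the catalytic subunit of polymerase epsilon, was the 1 member not called (-0.47, adjusted p = 0.0845), but it was called without adult replicate 1 and among only the genes above the median level. With the mean over its probe sets, Pole was called at -1.44 (adjusted p = 3.01e-06). The list means were 7.60 to 7.73 at P7 and 6.05 to 6.07 in the adult.

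Promoters of these genes are shown because mitotic genes are known to share a CHR element and CCAAT boxes, and replication genes E2F sites, through which cell cycle repressors and activators act. The sequences are from RefSeq on GRCm38.p6, 250 bases before to 50 after the annotated start, read along the gene. Capitals mark matches on either strand. The CHR word was searched in the form TTTGAA and also in the longer form TTTCGAA. The second word was the box whose name is its own letters, CCAAT. The E2F words were TTTCCCGC, TTTGGCGC and TTTCGCGC. The first pair are the mitosis genes with the largest falls, Top2a at chr11:99024140-99024439 on the minus strand and Mki67 at chr7:135716330-135716629 on the minus strand. The second pair are the replication genes with the largest falls, Rrm2 at chr12:24708004-24708303 on the plus strand and Mcm6 at chr1:128359656-128359955 on the minus strand.
Top2a: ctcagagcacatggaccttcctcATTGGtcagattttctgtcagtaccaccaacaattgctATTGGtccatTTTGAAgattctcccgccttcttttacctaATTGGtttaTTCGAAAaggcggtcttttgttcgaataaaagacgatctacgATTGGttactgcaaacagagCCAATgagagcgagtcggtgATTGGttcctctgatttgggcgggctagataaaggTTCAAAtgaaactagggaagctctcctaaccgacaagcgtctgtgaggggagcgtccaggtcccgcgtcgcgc
Mki67: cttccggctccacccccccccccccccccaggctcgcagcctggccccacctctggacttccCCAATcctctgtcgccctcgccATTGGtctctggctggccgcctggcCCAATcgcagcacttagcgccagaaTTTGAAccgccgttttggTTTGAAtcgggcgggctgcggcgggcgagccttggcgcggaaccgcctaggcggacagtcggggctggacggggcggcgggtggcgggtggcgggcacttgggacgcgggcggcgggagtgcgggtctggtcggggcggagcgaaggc
Rrm2: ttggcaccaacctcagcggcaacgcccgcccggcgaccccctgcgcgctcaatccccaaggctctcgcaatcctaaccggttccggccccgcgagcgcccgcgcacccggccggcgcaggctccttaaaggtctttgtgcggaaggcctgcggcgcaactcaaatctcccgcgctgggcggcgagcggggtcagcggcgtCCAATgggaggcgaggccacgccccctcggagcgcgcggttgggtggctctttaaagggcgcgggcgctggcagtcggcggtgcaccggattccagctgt
Mcm6: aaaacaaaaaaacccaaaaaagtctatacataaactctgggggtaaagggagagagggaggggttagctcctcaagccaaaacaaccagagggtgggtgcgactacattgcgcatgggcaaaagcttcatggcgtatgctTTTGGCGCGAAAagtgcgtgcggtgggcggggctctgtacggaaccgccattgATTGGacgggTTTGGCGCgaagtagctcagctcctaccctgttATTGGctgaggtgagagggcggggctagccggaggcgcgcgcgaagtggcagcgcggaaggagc
Top2a held 3 CHR words and 6 CCAAT boxes, and Mki67 held 2 CHR words and 3 CCAAT boxes. Rrm2 held 1 CCAAT box at -50 and none of the other words. Mcm6 held 3 E2F words, of which 2 overlap in the run that begins at -110, and 2 CCAAT boxes. Over the lists, 28 of 35 mitosis genes with a promoter entry held a CHR word (80.0%), against 16.5% of the 16918 tested genes with an entry. Both a CHR word and a CCAAT box stood in 62.9% of the mitosis promoters, against 6.73%. An E2F word stood in 8 of 26 replication promoters (30.8%), against 2.52%. These are counts of letters in a fixed window, and no binding was measured.

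The regulators of the cycle changed in both directions. Of 23 measured cyclins D and E, CDK inhibitors, pocket proteins and related genes, 11 fell and 2 rose, and the median was -0.67. The atypical repressors E2f8 (-3.48) and E2f7 (-1.81), themselves made in S phase, fell with E2f1 (-0.97). Cdk4 (-1.03) and Cdk6 (-1.09), the kinases of early G1, fell too, whereas the D cyclins Ccnd1 and Ccnd2, their partners, were not called (-0.67 and -0.20, adjusted p = 0.0761 and 0.86). Ccnd1 was called without adult replicate 2, with the replicate block, among only the genes above the median level and with Xist and Kdm5d as covariates. No CDK inhibitor of the list was called higher in the adult. Cdkn1a, which encodes p21, read 8.71, 9.18 and 9.27 at P7 and 6.70, 6.61 and 6.88 in the adult, and Cdkn2c, which encodes p18, read 7.44, 7.69 and 7.63 and then 5.22, 5.61 and 5.63. Both sets of arrays were separated, with falls of 2.32 ± 0.18 and 2.10 ± 0.18 (SE; adjusted p = 4.02e-08 and 1.07e-07). The retinoblastoma gene Rb1 differed by 0.11 (adjusted p = 0.725). The 2 that rose were the antiproliferative BTG genes. Btg2 went from 7.72, 8.84 and 8.65 to 10.85, 10.42 and 10.78 (4.85-fold higher, adjusted p = 9.63e-06) and Btg1 from 8.27, 8.5 and 8.38 to 9.64, 9.07 and 9.58 (2.07-fold higher).

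Several histone and chromatin genes fell strongly. H1f5, a linker histone of the replication-dependent class, had the largest difference of all 22180 genes. It read 10.41, 11.17 and 11.02 at P7 and 3.38, 4.05 and 3.67 in the adult, a fall of 7.16 ± 0.40 (SE, adjusted p = 7.04e-10). The adult values are at the low end of the scale, where signal and background cannot be told apart, so the 143-fold difference depends on the background. Of 21 measured genes of DNA methylation, Polycomb and chromosome structure, 10 fell and 2 rose. The falls were largest for the chromatin remodeller Hells (-3.25), the histone variant H2ax (-3.03), the nuclear lamin Lmnb1 (-2.53), Hmgb2 (-2.11), the Polycomb methyltransferase Ezh2 (-2.0) and the maintenance methyltransferase Dnmt1 (-1.63). The de novo methyltransferases Dnmt3a and Dnmt3b and the Tet1, Tet2 and Tet3 dioxygenases were not called, with differences between -0.35 and 0.20. The 2 members called higher, Ezh1 (0.52), the Polycomb methyltransferase of resting cells, and Cbx7 (0.50), lost their calls when some arrays were left out, and Ezh1 also in a fit of the 6 cortex arrays alone. The count of higher members was 1 without P7 replicate 1, P7 replicate 3 or adult replicate 2 and 0 without adult replicate 3.

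**Figure D3:**
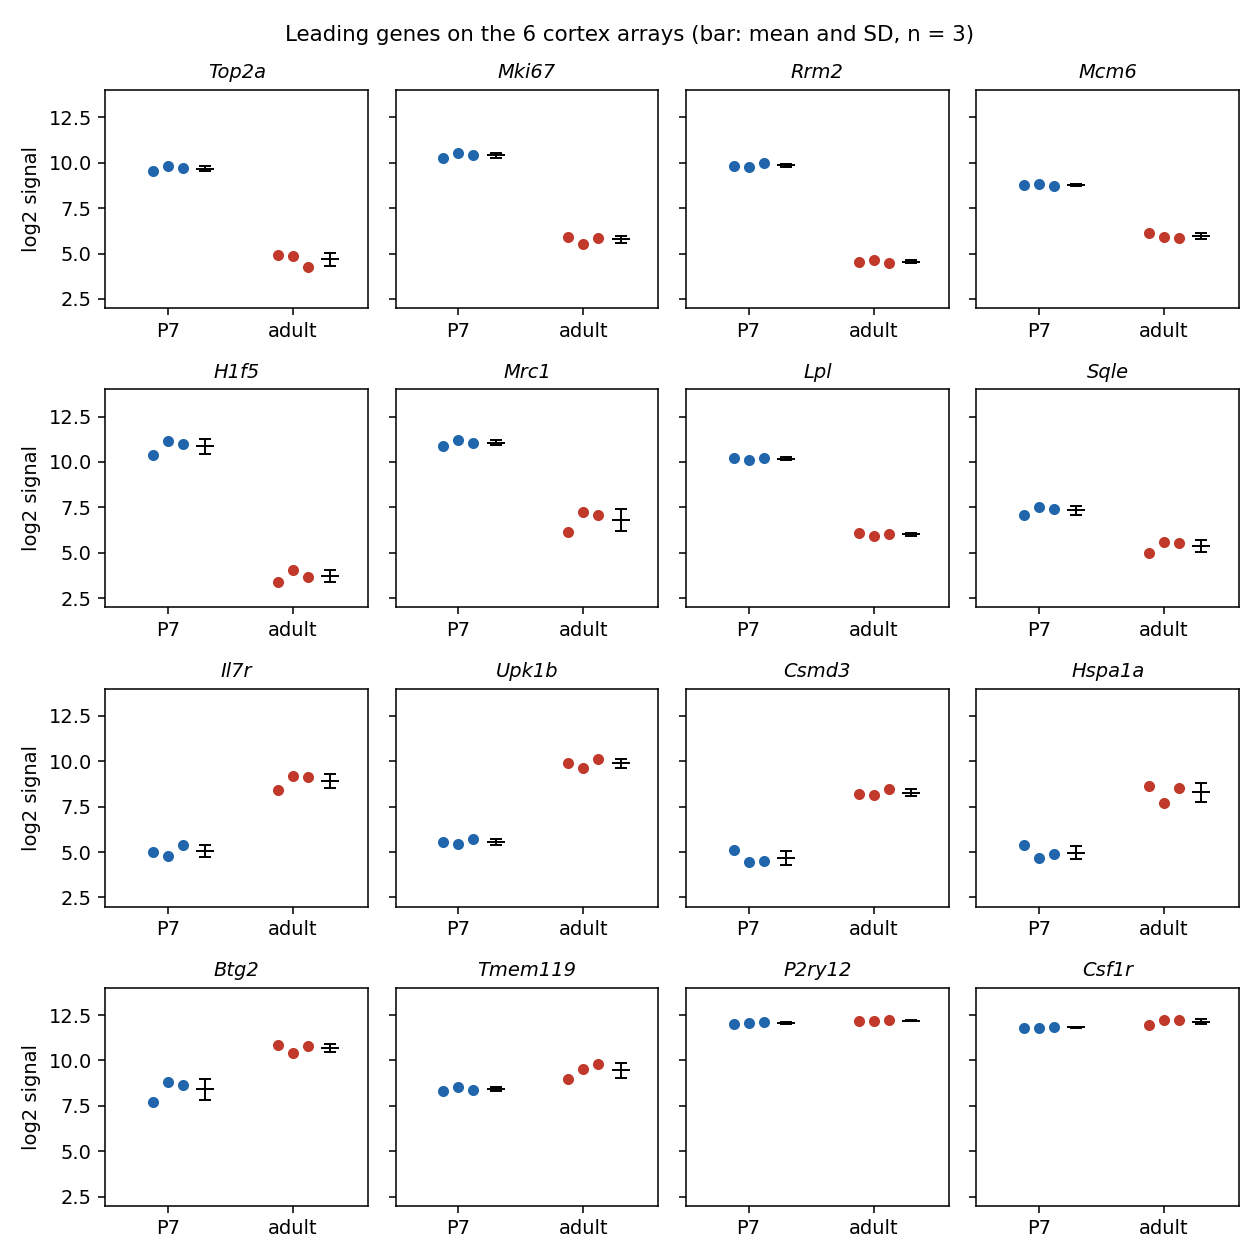
Log2 signal (y axis) of 16 genes on the 3 P7 (blue) and 3 adult (red) cortex arrays, each point an array and each black bar the mean with its SD (n = 3). Top2a, Mki67, Rrm2 and H1f5 drop from near 10 or 11 to under 6, Il7r, Upk1b, Csmd3 and Hspa1a rise from near 5 to 7.67 or more, and P2ry12 stays between 12.01 and 12.23.

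Many ribosomal protein genes and some genes of oxidative phosphorylation were lower in the adult. Of 35 cytosolic ribosomal protein genes, 25 fell and none rose (median -0.61). Rpl32 went from 11.47, 11.69 and 11.62 to 9.89, 10.25 and 10.31 (2.73-fold lower, adjusted p = 1.22e-06) and Rps19 from 10.79, 10.90 and 11.03 to 9.53, 9.50 and 9.63 (2.56-fold lower, adjusted p = 3.29e-08). Ribosomal proteins have many processed copies in the genome that probes can share, so single members are uncertain. Of 26 genes of oxidative phosphorylation, 10 fell and none rose (median -0.38). These included the cytochrome oxidase subunits Cox5a (-0.87), Cox4i1 (-0.84) and Cox5b (-0.81) and the ATP synthase subunit Atp5b (-0.84). Of 15 glycolysis genes only Pgk1 was called (-0.97), and the median of -0.07 was 0.07 after a further quantile normalization and without adult replicate 1.

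Of 18 measured genes of sterol synthesis and its regulators, 12 were lower and none higher, with a median of -0.81. Squalene epoxidase, Sqle, an oxygen-dependent and rate-limiting step, read 7.07, 7.51 and 7.42 at P7 and 4.99, 5.58 and 5.55 in the adult. The ages did not overlap, and the fall was 1.96 ± 0.21 (SE, adjusted p = 2.75e-06). Cyp51, which demethylates lanosterol, fell by 1.55, the synthase Hmgcs1 at the head of the pathway by 1.14, and Fdps, which makes farnesyl diphosphate, by 1.17. The regulators Srebf2, the transcription factor of the pathway, and Insig1, which restrains it, fell by 0.91 and 1.15. Mvk, Nsdhl, Lss, Srebf1, Mvd and Pmvk were not called (-0.38 to -0.01).

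Lipoprotein lipase, Lpl, which releases fatty acids from lipoproteins, had the smallest p-value of the comparison. It read 10.25, 10.13 and 10.20 at P7 and 6.10, 5.95 and 6.01 in the adult, a fall of 4.17 ± 0.15 (SE), or 18-fold (adjusted p = 4.49e-12). The 3 arrays of each age lay close together and the ages far apart. The fatty acid carrier Fabp5 read 10.23, 8.94 and 9.44 and then 6.05, 5.96 and 6.29 (10.8-fold lower, adjusted p = 3.16e-08), with more spread at P7. Among 22 genes of lipid efflux, carriers and droplets, 7 fell and 3 rose (median -0.28). The apolipoprotein genes Apoc1 (-1.54) and Apoe (-1.14), the droplet coats Plin2 (-1.54) and Plin3 (-0.72) and the lipoprotein receptor Scarb1 (-1.10) fell. Mylip, whose product degrades the LDL receptor, rose by 0.97 ± 0.14 (SE, adjusted p = 0.000103), and Ppard, a fatty acid-sensing nuclear receptor, by 0.61 (adjusted p = 0.00873). The cholesterol exporter Abcg1 was called at 0.55 (adjusted p = 0.0377) and lost its call without any of 4 arrays, P7 replicates 2 and 3 and adult replicates 2 and 3, and after centring on array medians.

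Genes of the microglia found on developing axon tracts, and of CD11c-positive microglia, were lower in part in the adult cortex. Of 23 measured, 12 fell, none rose, and the median was -0.68. Besides Lpl, Fabp5 and Apoe these included the galectin Lgals1 (-2.10), the annexin Anxa5 (-1.55) and Igf1, a growth factor for neurons and oligodendrocytes. Igf1 read 8.0, 6.84 and 7.38 at P7 and 5.70, 5.94 and 5.71 in the adult, a fall of 1.62 ± 0.27 (SE, adjusted p = 0.000398). Itgax, which encodes CD11c, read 6.10, 5.41 and 5.71 and then 5.63, 5.64 and 5.91, so the ages overlapped (-0.01, adjusted p = 0.989). Gpnmb was called at -1.13 (adjusted p = 0.0389), with P7 values of 7.60, 5.91 and 6.94 and adult values of 5.42, 5.96 and 5.66 that overlap. The call was lost without P7 replicate 1 (-0.74), P7 replicate 3 (-1.07), adult replicate 1 (-1.0) or adult replicate 3 (-1.12). It was also lost in fits of the 6 cortex arrays or the 12 P7 and adult arrays alone, and with an intensity trend and robust variances. Cst7, Ch25h, Cd9 and Mmp12 were not called (-0.19 to 0.11). Among 27 lysosomal genes, 5 were lower and 2 higher with a median of -0.12. This was 25.9%, against 10.2% of all genes and 17.6% of those above the overall median signal. The count of lower members was 3 without P7 replicate 3. Gusb (-1.06), Ctsl (-0.68) and Ctsb (-0.63) fell, whereas Ctsh (0.99) and Ctss (0.49), a protease of the MHC class II pathway, rose.

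Homeostatic microglia genes were already at high signal at P7, and a part of them rose further. Of 23 measured, 9 were called higher, none lower, and the median was 0.31. The count was 5 without P7 replicate 3 and 4 without adult replicate 2 or adult replicate 3. Selplg, the P-selectin ligand, went from 10.50, 10.72 and 10.62 to 11.97, 12.27 and 12.32 (2.97-fold higher, adjusted p = 1.1e-05). Tmem119, a microglial membrane protein, went from 8.31, 8.56 and 8.39 to 8.98, 9.55 and 9.83 (2.05-fold higher, adjusted p = 0.00413), with adult replicate 1 nearest to P7. The fructose transporter Slc2a5 rose by 0.92 ± 0.16 (SE) and the type I TGF-beta receptor Tgfbr1 by 0.83 ± 0.12. The ADP receptor P2ry12 read 12.01, 12.04 and 12.10 at P7 and 12.19, 12.17 and 12.23 in the adult, which was separated but not called (0.15, adjusted p = 0.564). The CSF1 receptor Csf1r read 11.80, 11.81 and 11.85 and then 11.96, 12.25 and 12.22 (0.32, adjusted p = 0.2), and it was called after a further quantile normalization. Signals of 12 are near the top of the scale, on which the highest value of any array was 13.8. Cx3cr1, the fractalkine receptor, was called at 0.40 (adjusted p = 0.024) and lost its call without any of 4 arrays, P7 replicates 1 and 3 and adult replicates 2 and 3, and in a fit of the 6 cortex arrays alone.

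Of 22 transcription factors of microglial identity, 8 rose, 1 fell and the median was 0.37. The count of higher members was 5 without P7 replicate 3, adult replicate 2 or adult replicate 3. Cebpa, a myeloid factor, went from 7.5, 7.85 and 7.66 to 8.92, 8.47 and 8.83 (2.10-fold higher, adjusted p = 0.000108). Zfhx3 rose by 0.93 ± 0.19, Mef2a by 0.66 ± 0.13 and Irf8, which microglia need for their development, by 0.62 ± 0.14 (SE). Sall1, a factor that keeps microglia distinct from other macrophages, was not called (0.38, adjusted p = 0.128), though it was when only the 12 P7 and adult arrays were fitted and after a further quantile normalization. Spi1, which encodes PU.1, and Runx1 were not called (0.17 and 0.30). Tfec, of the family of Mitf and Tfeb, fell from 7.76, 7.90 and 7.85 to 5.54, 5.84 and 5.99 (4.14-fold lower, adjusted p = 3.6e-08).

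Of 24 measured genes of TGF-beta signalling, 9 were called higher and none lower (median 0.24). The count was 5 without P7 replicate 3. They included receptors, mediators and inhibitors. The accessory receptor Eng rose by 1.16 ± 0.19, the receptors Tgfbr1 by 0.83 ± 0.12 and Tgfbr2 by 0.65 ± 0.15 (SE). The mediator Smad3 was called higher (limma adjusted p = 0.00937), with differences of 0.57 to 0.84 over the alternatives. Its call was lost only without P7 replicate 3. The common mediator Smad4 was called at 0.40 and lost its call without P7 replicate 2, P7 replicate 3, adult replicate 1 or adult replicate 3. It also lost its call after centring on array medians and in a fit of the 6 cortex arrays alone. The feedback inhibitors Smad7 (0.99 ± 0.14), Skil (0.85 ± 0.17) and Ski (0.55 ± 0.13) were called higher with them, Ski not without P7 replicate 3. Smad7 read 7.08, 7.12 and 7.19 at P7 and 7.89, 8.25 and 8.23 in the adult, with no overlap. The ligands Tgfb1, Tgfb2 and Tgfb3 were not called (0.25, 0.21 and -0.18), nor was Nrros (-0.12), which tethers the latent ligand.

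Antigen presentation rose in a few members. Of 18 MHC class I and peptide loading genes, 3 were called higher and none lower (median 0.30). This was 16.7%, against 10.2% of all genes and 17.6% of those above the overall median signal. The calls of the list numbered 1 without P7 replicate 1, P7 replicate 3 or adult replicate 2, and 5 without adult replicate 1. H2-T23, which kept its call under every alternative, encodes the non-classical molecule Qa-1. It read 6.03, 6.27 and 6.26 at P7 and 7.76, 7.62 and 7.54 in the adult (2.74-fold higher, adjusted p = 3.92e-05). Psmb9, a subunit of the immunoproteasome, was called at 0.53 (adjusted p = 0.0159), a call lost without P7 replicate 1, P7 replicate 3 or adult replicate 2. The classical heavy chain H2-K1 (0.42, adjusted p = 0.237) and the light chain B2m (0.08, adjusted p = 0.731) were not called. The promoters of the 2 called members with the largest rise that have a RefSeq entry on GRCm38.p6 are shown for the interferon element, with GAAANNGAA on either strand in capitals. H2-T23 lies at chr17:36032652-36032951 and Psmb9 at chr17:34187281-34187580, both on the minus strand.
H2-T23: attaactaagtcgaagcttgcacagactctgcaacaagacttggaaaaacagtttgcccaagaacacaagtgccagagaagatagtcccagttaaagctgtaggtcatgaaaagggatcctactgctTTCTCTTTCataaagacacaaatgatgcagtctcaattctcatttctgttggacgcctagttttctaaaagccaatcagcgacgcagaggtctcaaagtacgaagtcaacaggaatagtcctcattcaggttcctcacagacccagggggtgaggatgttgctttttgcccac
Psmb9: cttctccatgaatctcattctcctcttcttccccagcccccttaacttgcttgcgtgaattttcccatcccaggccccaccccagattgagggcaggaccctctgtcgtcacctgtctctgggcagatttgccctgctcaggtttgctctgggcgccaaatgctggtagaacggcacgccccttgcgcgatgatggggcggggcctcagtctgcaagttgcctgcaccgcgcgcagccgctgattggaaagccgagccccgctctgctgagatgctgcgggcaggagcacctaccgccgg
H2-T23 held 1 such word at -123 and Psmb9 none. The word stood in 3 of 13 promoters of the list (23.1%), against 8.10% of the tested genes. It also stood in 8 of 27 promoters of the cytosolic ribosomal protein genes (29.6%), a list with no member called higher. Among genes called with at least 1 log2 unit, 11 of 110 higher and 28 of 339 lower genes held it. The word was therefore not particular to genes that rose.

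Of 16 MHC class II and costimulation genes, 6 were called higher and 1 lower (median 0.30). The count of higher members was 3 without P7 replicate 1 or adult replicate 3. The chains H2-DMa (0.87, adjusted p = 0.00291) and H2-Ob (0.79, adjusted p = 0.00087), of the molecules that control peptide loading, and the costimulatory ligand Cd86 (0.76, adjusted p = 0.00127) rose. The surface chains H2-Aa (0.04), H2-Ab1 (-0.04) and H2-Eb1 (0.28) and the transactivator Ciita (0.13) were not called. Ifi30, a thiol reductase of the endosome, fell by 1.26 ± 0.21 (SE, adjusted p = 0.000484). Of 24 interferon response genes, 6 rose and 1 fell (median 0.23), and the count of higher members was 3 without P7 replicate 2 or adult replicate 2. The cytosolic RNA sensors Ddx58 (0.96, adjusted p = 0.000164) and Ifih1 (0.94, adjusted p = 0.000556) and the interferon-restraining protease Usp18 (0.90, adjusted p = 5.42e-05) rose. Ifit1, Ifit2, Ifit3, Isg15, Mx1 and Irf7, which respond strongly to interferon, were not called (-0.25 to 0.45). Ifitm2 went the other way, from 7.81, 7.89 and 8.01 to 5.77, 5.50 and 5.22 (5.31-fold lower, adjusted p = 1.16e-05).

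Tlr3 and Tlr12 led the pattern receptors. Tlr3, the receptor for double-stranded RNA, went from 8.16, 8.37 and 8.39 to 9.42, 10.05 and 9.99 (2.86-fold higher, adjusted p = 7.63e-06). Tlr12, a partner of the profilin-sensing Tlr11, went from 6.55, 6.56 and 6.41 to 8.01, 7.97 and 7.92 (2.76-fold higher, adjusted p = 1.19e-06). The ages did not overlap for either gene. Tlr9, a sensor of DNA, rose by 0.88 and Cd14, a lipopolysaccharide co-receptor, by 0.81. In all, 7 of 27 pattern receptors were called higher and 1, Tlr1, lower (median 0.27). The higher members numbered 4 without adult replicate 2, and Tlr1 lost its call without P7 replicate 2, P7 replicate 3 or adult replicate 1. Tlr2, Tlr4 and Tlr6, which sense bacterial products, were not called (0.04 to 0.23).

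Of 36 cytokine and inflammasome genes, 7 rose and none fell (median 0.22). This was 19.4%, against 10.2% of all genes and 17.6% of those above the overall median signal. The count of higher members was 4 without adult replicate 3, and 1 member was called lower without adult replicate 1. Il6 went from 4.56, 4.70 and 4.6 to 5.83, 6.01 and 6.31 (2.70-fold, adjusted p = 0.000145), with the P7 values under the array median. Il1a rose by 1.03 ± 0.19 and Casp4, the caspase of the non-canonical inflammasome, by 1.25 ± 0.26 (SE). Nfkbia (0.83), which restrains NF-kappa-B, rose as well. Tnf was not called (-0.63, adjusted p = 0.133), nor was Il1b (0.65, adjusted p = 0.122), though Il1b was when only the 12 P7 and adult arrays or only the 6 cortex arrays were fitted, and with Xist and Kdm5d as covariates. Of 19 complement genes, 2 were called higher (10.5%, near the 10.2% of all genes called). Both were subunits of complement receptor 3, Itgam (0.61) and Itgb2 (0.85). The count was 4 without adult replicate 1, and 1 member was called lower without P7 replicate 2. C1qa, C1qb and C1qc were not called (0.39, 0.26 and 0.10), though C1qa was without adult replicate 1, after a further quantile normalization, with an intensity trend and robust variances and with Xist and Kdm5d as covariates. Itgam also encodes CD11b, the antigen of the sort.

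Phagocytic receptors divided. Of 28, 3 rose and 3 fell (21.4%, against 10.2% of all genes and 17.6% of those above the overall median signal). The median of the list was -0.05, and 5 members were called higher without adult replicate 1. The receptor kinase Mertk, which binds dying cells through bridging proteins, went from 10.16, 10.07 and 9.98 to 10.95, 11.24 and 11.20 (2.09-fold higher, adjusted p = 1.16e-05). Its bridging ligand Gas6 went from 10.49, 10.51 and 10.58 to 8.68, 8.56 and 8.59 (3.77-fold lower, adjusted p = 3.18e-09). The integrin subunits Itgav (0.72) and Itgb5 (0.67), which pair to bind the other bridging protein Mfge8, rose. The mannose receptor Mrc1 fell from 10.90, 11.18 and 11.07 to 6.13, 7.24 and 7.10 (18.7-fold lower, adjusted p = 3.68e-09). Fcgr1, Fcgr3 and Fcgr4, receptors of immunoglobulin G, were not called (0.41, 0.46 and -0.37), though Fcgr1 and Fcgr3 were without adult replicate 1, after a further quantile normalization and among only the genes above the median level. Fcgr3 was also called with the replicate block, with an intensity trend and robust variances and with Xist and Kdm5d as covariates.

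Among 16 chemoattractant receptors, 4 were called higher and 1 lower (median 0.14). This was 31.2%, against 10.2% of all genes and 17.6% of those above the overall median signal. The higher members numbered 2 without P7 replicate 3, adult replicate 2 or adult replicate 3, and 2 were called lower without P7 replicate 1 or adult replicate 1. Ptafr, the receptor of platelet-activating factor, rose by 0.85 ± 0.10 (SE, adjusted p = 1.44e-05) and Ccr1 fell by 1.41 ± 0.30 (SE, adjusted p = 0.00368). Of 17 purinergic genes, Entpd1 (0.80), the ectoenzyme CD39 that degrades ATP, and the adenosine receptor Adora3 (0.68) rose and P2rx1 fell by 0.81. These calls were 17.6% of the list, the same share as among all genes above the overall median signal. Ion channels moved both ways, with 3 of 22 higher and 3 lower (27.3% of the list). The count of lower members was 1 without P7 replicate 1 or adult replicate 1. The channel Trpm2 (1.24, adjusted p = 0.000354) and the proton channel Hvcn1 (0.72, adjusted p = 0.00102) rose, and the sodium pump subunit Atp1b1 fell by 1.21. Of 31 adhesion and matrix genes, 7 rose and 1, Itgb1 (-0.75), fell (25.8% of the list, median 0.27). The membrane metalloprotease Mmp14 went from 5.92, 5.61 and 6.09 to 7.40, 7.21 and 7.36 (2.73-fold higher, adjusted p = 2.5e-05). Of 22 secreted growth factors, Gas6, Igf1, Csf1 and Ptn were called lower and Pdgfb (1.02) higher (22.7% of the list). The count of higher members was 2 without adult replicate 1. The call of Csf1 (-0.89, adjusted p = 0.0477) was lost without any of 5 arrays, all but adult replicate 2. It was also lost with the replicate number as a block, in a fit of the 12 P7 and adult arrays, after a further quantile normalization and with an intensity trend and robust variances.

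Immediate early and heat shock genes had the highest median of the 29 lists, 0.47, with 13 of 28 measured members higher and 2 lower. The inducible HSP70 genes Hspa1a and Hspa1b are near-identical copies and their probes may be shared. Hspa1a read 5.37, 4.65 and 4.87 at P7 and 8.65, 7.67 and 8.52 in the adult (9.97-fold higher, adjusted p = 3.85e-05), and Hspa1b rose by 2.51 ± 0.28 (SE). Both were under the array median at P7 and far over it in the adult. Fos, an AP-1 subunit, went from 6.48, 6.96 and 6.59 to 8.75, 7.78 and 8.26 (3.01-fold higher, adjusted p = 0.000253). Its relatives Fosb (1.73), Jun (1.49) and Jund (1.40) rose as well, as did the phosphatase Dusp1 (1.39) and the mRNA-decay factor Zfp36 (1.36). Junb (0.95), Atf3 (0.98) and Egr1 (1.20) were called too, but not without P7 replicate 1 or adult replicate 1, Junb and Egr1 not without adult replicate 3, Egr1 not without P7 replicate 3 and Atf3 not without P7 replicate 2. Junb and Egr1 were also not called in a fit of the 6 cortex arrays alone, nor Egr1 with an intensity trend and robust variances. For Fos, Fosb, Jun, Junb, Jund, Dusp1, Zfp36, Egr1 and Atf3 adult replicate 1 was the highest of the 6 cortex arrays. The mitochondrial chaperonins Hspd1 (-0.86) and Hspe1 (-0.64) fell, and Hspa8, Hsp90aa1, Hsph1 and Hspb1 were not called (-0.10 to -0.01). The list mean was 7.58, 7.81 and 7.82 on the P7 arrays and 8.70, 8.32 and 8.51 on the adult arrays.

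Of 15 glucocorticoid response genes, 3 rose and 2 fell. Sgk1 (1.49, adjusted p = 1.83e-06), Tgm2 (1.29) and the glucocorticoid receptor gene Nr3c1 (0.63) rose. The metallothioneins Mt2 (-2.74, adjusted p = 2.42e-05) and Mt1 (-0.82) fell, and Fkbp5 and Tsc22d3 were not called (0.18 and 0.23). Of 17 clock genes, 5 were called higher (median 0.32), but 2 without P7 replicate 1, 2 or 3 or adult replicate 2 and 1 without adult replicate 3. The call of Arntl, which encodes the clock activator BMAL1, was kept under every alternative (0.69, adjusted p = 0.00229). No source used here gives the hour of sampling.

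The largest rise was that of Upk1b, a tetraspanin best known from bladder epithelium. It read 5.55, 5.42 and 5.72 at P7 and 9.90, 9.62 and 10.13 in the adult (4.32 ± 0.25 SE, adjusted p = 1.06e-09). Il7r, the interleukin-7 receptor chain of lymphoid and fetal myeloid cells, read 4.99, 4.80 and 5.40 and then 8.44, 9.17 and 9.12 (14.4-fold higher, adjusted p = 5.13e-08). Csmd3, a large membrane protein with CUB and sushi domains like those of complement regulators, read 5.12, 4.45 and 4.50 and then 8.20, 8.16 and 8.47 (12-fold higher, adjusted p = 7.69e-11). At P7, Il7r and Csmd3 were under the array median and Upk1b was near it, where signal and background cannot be told apart, so their folds depend on the background. Rgs1, which damps chemokine receptor signals, went from 5.67, 6.01 and 6.03 to 9.0, 8.53 and 8.54 (6.90-fold higher, adjusted p = 4.52e-06). The receptor-sorting gene Gprasp2 (2.02), the cilium-associated gene Cfap74 (1.95), the receptor phosphatase Ptprm (1.92), the ubiquitin ligase Neurl3 (1.76), the adhesion molecule Jam2 (1.74) and the Rac regulator Chn2 (1.73) rose between 3.31-fold and 4.05-fold. The glutamate transporter Slc1a3 went from 5.72, 6.05 and 5.36 to 7.09, 7.71 and 7.70 (1.79 ± 0.22 SE, adjusted p = 1.44e-05).

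Markers of other cells were checked as whole lists. Of 11 markers of border-associated macrophages, the macrophages of meninges and vessels, 5 fell and none rose (median -0.39), and the list mean was 6.30 to 6.52 at P7 and 5.18 to 5.34 in the adult. Mrc1 led this list, with Pf4 (-2.43), Ccr1 (-1.41), Cbr2 (-1.12) and Folr2 (-1.10). Cd163, Lyve1, F13a1, Siglec1, Clec10a and Ms4a7 were not called (-0.39 to -0.11). The mean of this list was lower together with the proliferation, lipid and scavenger genes, and its part in those results was not tested. Of 15 neuron markers, 4 fell (median -0.16) and 2 fell without adult replicate 3, with list means of 5.49 to 5.55 at P7 and 5.16 to 5.22 in the adult. Gap43, of growing axons, read 7.40, 7.29 and 7.29 and then 5.78, 5.73 and 5.79 (2.95-fold lower). Of 10 astrocyte markers, Slc1a3 and Aqp4 (0.73) were called higher (20% of the list, against 10.2% of all genes). Gfap, Aldh1l1, Slc1a2 and Sox9 were not called (-0.05 to 0.08). The astrocyte list mean was 5.43 to 5.49 at P7 and 5.6 to 5.74 in the adult. Aqp4 lost its call without P7 replicate 2 or 3 or adult replicate 2 or 3, and Gja1 (-0.41) was called lower without adult replicate 2.

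Of 10 monocyte markers, Ccr2 (0.77) was called higher and Lyz2 (-0.82) and Plac8 (-0.60) lower (30%, against 10.2% of all genes). The count of lower members was 1 without any 1 array other than adult replicate 1. Plac8 was not called with the replicate block. The monocyte mean was 5.87 to 6.00 at P7 and 5.65 to 6.06 in the adult. No call was made among 11 neutrophil, 11 oligodendrocyte, 10 precursor and 3 erythroid markers. Of 14 lymphocyte markers, Cd79b was called lower (-0.63), a call lost without P7 replicate 2, P7 replicate 3 or adult replicate 1. Of 13 endothelial markers, Pecam1 was called higher (1.06, adjusted p = 0.000125), while Cldn5, Cdh5 and Flt1 were not (0.14, -0.45 and 0.05). A second endothelial marker was called without adult replicate 1.

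**Figure D4:**
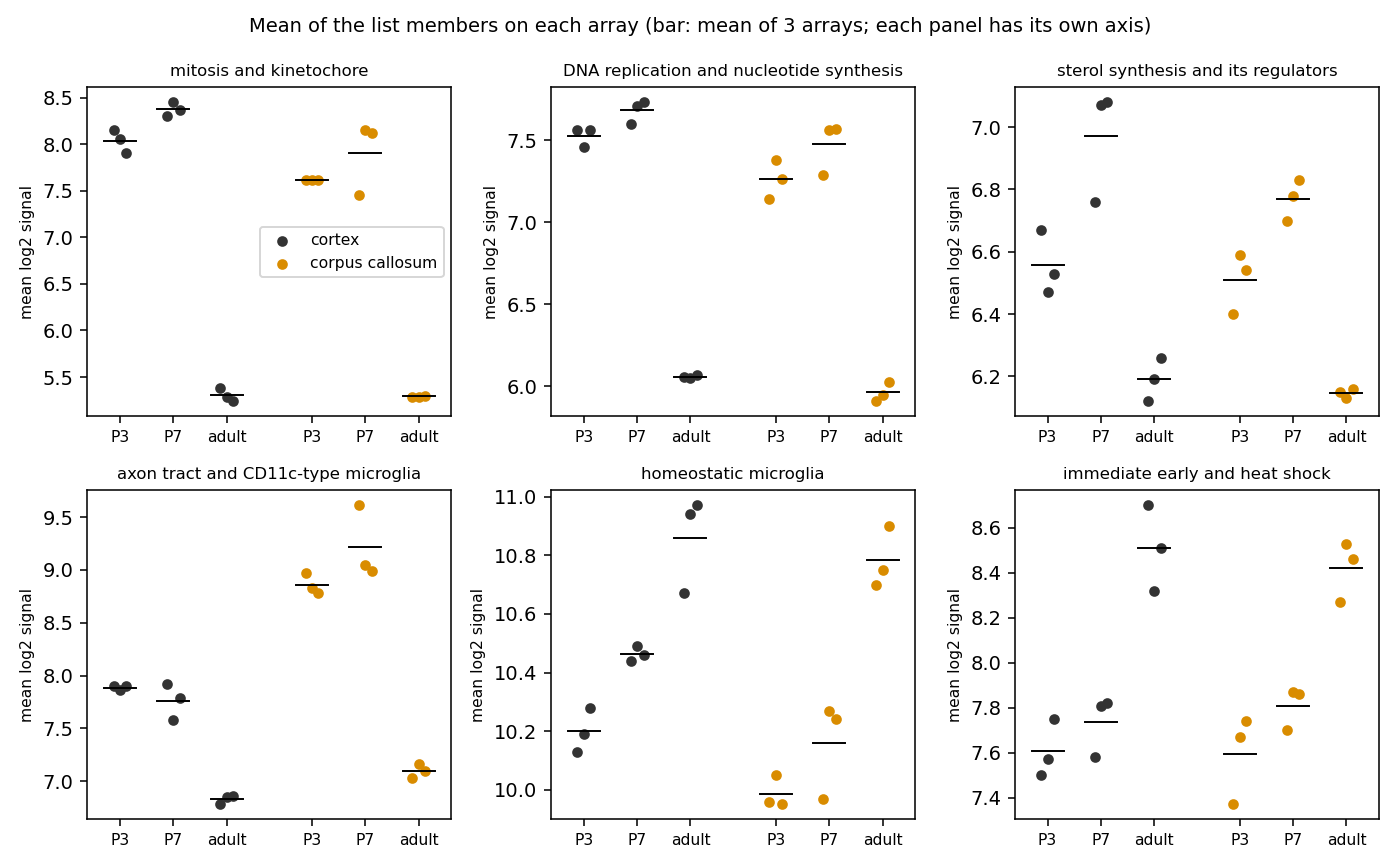
Mean log2 signal of the members of 6 lists (y axes, each panel with its own scale) on each array at P3, P7 and in the adult, in cortex (black) and corpus callosum (orange), with a bar at the mean of 3 arrays. In cortex the mitosis list drops from 8.30 to 8.45 at P7 to 5.24 to 5.38 in the adult, and the axon tract list is at 8.99 to 9.61 in the callosum against 7.58 to 7.92 in cortex at P7, and at 7.03 to 7.16 against 6.78 to 6.86 in the adult.

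The same ages were compared in the corpus callosum, a white matter tract, with its own 6 arrays. There 3822 genes were called (17.2%), 1454 higher (6.56%) and 2368 lower (10.7%). Of the genes called lower in cortex, 1169 were also called lower in the callosum, which is 85.6% of the cortex list and 49.4% of the callosum list. Of those called higher in cortex, 598 were called higher in the callosum, 66.5% of the cortex list and 41.1% of the callosum list. The sign of the difference was the same in the callosum for 2217 of the 2264, and the share over all genes was not computed. The 3 genes with opposite calls were Mitf, Slc9a7 and Syngr1, chosen here after their values were seen, each higher in adult cortex and lower in adult callosum. In cortex, Mitf lost its call without any 1 of 4 arrays (P7 replicates 2 and 3, adult replicates 2 and 3) and Slc9a7 without any 1 of 5 (all but P7 replicate 3) and after centring on array medians, while Syngr1 (0.56, adjusted p = 0.00685) kept its call under every alternative.

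A test of the difference between the regions, the interaction, called 45 genes (0.203%), of which 44 were more negative in the callosum (0.198%) and 1 more positive (0.00451%). The count was 12 to 25 without any 1 of the 6 cortex arrays, 20 without callosum P7 replicate 1, 18 without callosum adult replicate 1 and 17 without callosum adult replicate 2. It was 31, 33 and 47 without the other callosum arrays. Of the 44, 27 were not called in cortex, 14 were lower and 3 were higher. Itgax differed by -3.18 in the callosum and by -0.01 in cortex, and Atp6v0d2, a proton pump subunit, by -5.03 and -0.85, and neither was called in cortex. For Itgax the cortex means were 5.74 ± 0.35 at P7 and 5.73 ± 0.16 in the adult (SD, n = 3), and the callosum means 8.84 ± 0.83 and 5.67 ± 0.05. The adult means of the regions lay within their SDs and the P7 means did not. The interaction call of Igf1 was lost without cortex P7 replicate 2 or 3, cortex adult replicate 2 or 3 or callosum adult replicate 2. It was also lost in a fit of the 12 P7 and adult arrays alone. For Igf1 the cortex means were 7.40 ± 0.58 and 5.79 ± 0.14 and the callosum means 9.84 ± 0.56 and 5.96 ± 0.26. Lag3, an inhibitory receptor, was higher in adult than in P7 cortex (7.80 ± 0.23 and then 9.38 ± 0.28) while its callosum means were 9.27 ± 0.48 and 8.88 ± 0.45. Its interaction call was lost without cortex P7 replicate 2 or 3 or cortex adult replicate 2 or 3. The fit of the 12 P7 and adult arrays alone lost it as well. None of the mitosis, replication, ribosomal or sterol genes was among the 45, and 7 of the 23 axon tract genes were. The lists were chosen with earlier results of these data known, so these counts are descriptions only.

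**Figure D5:**
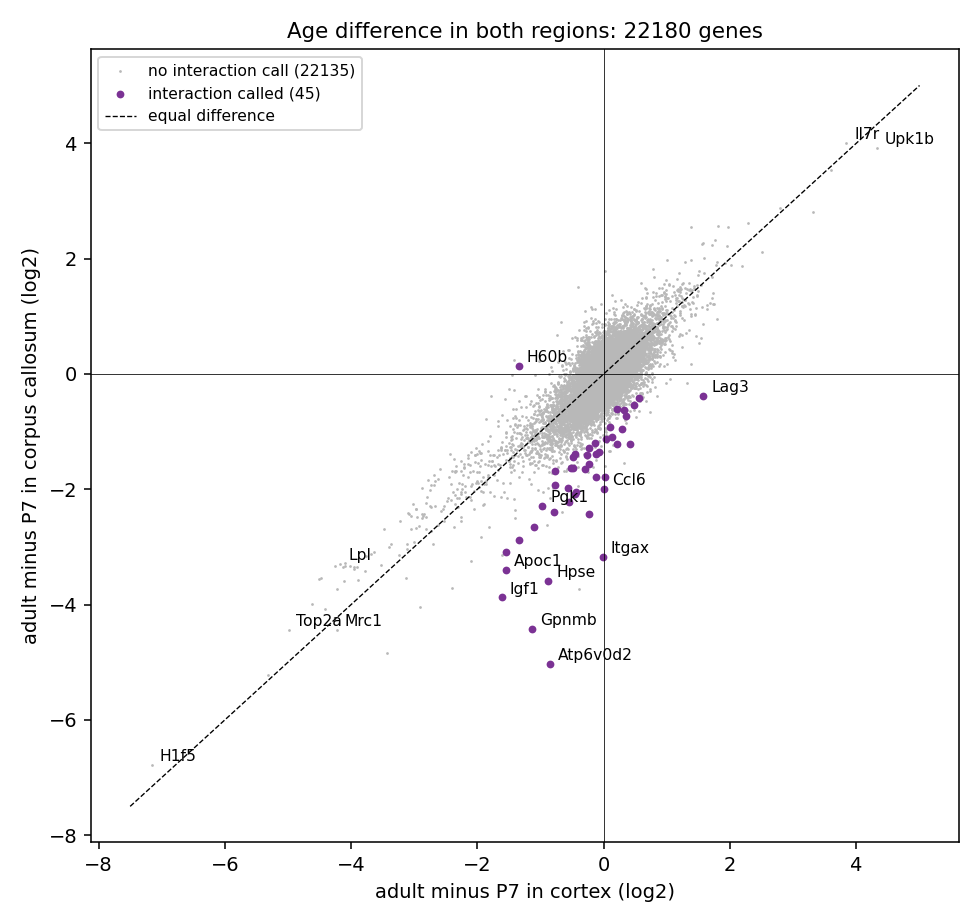
Adult minus P7 difference in corpus callosum (y axis, log2) against that in cortex (x axis, log2) for 22180 genes, with the 45 genes called for the interaction in purple and a dashed line of equal difference. H1f5, Top2a and Mrc1 at the lower left and Upk1b and Il7r at the upper right lie near the line, and 44 of the 45 purple points lie below it.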

How the data were processed

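Signals of 41345 probe sets on 18 arrays were used as the authors deposited them, as log2 values made with RMA per the submitters' processing notes. The base of the logarithm was inferred from their range, and no source used here gives the version, settings or build. Per the labels' protocols, the Ovation PicoSL WTA System V2 amplified the RNA and the Encore Biotin Module labelled it. Of the probe sets, 23521 carried 1 gene symbol in the platform annotation, 1814 several and 16010 none. The brightest single-symbol probe set stood for each of 22180 genes, of which 1082 had more than 1.

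One limma model (version 3.58.1, R 4.3.3) with a mean for each of the 6 groups was fitted to all 18 arrays, with 12 residual degrees of freedom, and tested on simulated data. No filter on dim signal was applied. An exact permutation test of 3 arrays against 3 cannot go below 0.1 and was not used. Precision is limited by the number of arrays.

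The 39 gene lists were not tested as sets. The members and lists were chosen with earlier results of these data known. Named genes are, per direction, up to 15 separated called genes of largest difference, up to 4 called members per list and direction, a panel of markers, up to 8 interaction genes per direction and up to 6 genes with the smallest p. Others named were chosen after their values were seen. The alternatives changed the arrays fitted, replicate block, normalization, dim-gene filter, probe-set choice, variance model and Xist and Kdm5d as covariates, or left out an array.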

Additional observations from a re-analysis of the deposited data

Results flagged for a closer look

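The age effect, adult minus P7, differed between corpus callosum and cortex for 45 genes by limma's interaction test (adjusted p under 0.05). The values that follow are the callosum effect minus the cortex effect on the log2 scale. The largest were those of genes in the CD11c-type and axon tract list, which was chosen with earlier results of these data known. They were Atp6v0d2 at -4.19 (adjusted p = 0.00933), Gpnmb at -3.29 (0.00872), Itgax at -3.17 (0.00211), Hpse at -2.71 (0.00059) and Igf1 at -2.26 (0.0189). Anxa5 of the same list stood at -1.53 (adjusted p = 0.00211) and Cd9 at -1.02 (0.0459). Hpse read 5.85 and 4.97 in P7 and adult cortex and 8.51 and 4.92 in callosum (means of 3 arrays).

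The chemokine Ccl6 stood at -2.01 (adjusted p = 0.00872), with cortex means of 7.34 at both ages and callosum means of 9.26 at P7 and 7.26 in the adult. The apolipoprotein Apoc1 stood at -1.86 (adjusted p = 0.0396), the folate receptor Folr2 at -1.56 (0.0459), the glycolytic kinase Pgk1 at -1.31 (0.0294), Slc9a7 at -1.03 (0.0459) and Syngr1 at -0.99 (0.0348). Whether the interaction calls of these genes and of Cd9 hold under the alternatives is not shown here. The count of 45 was 24 with only the 12 P7 and adult arrays. Lag3 stood at -1.96 (adjusted p = 0.0149) and Cd200r4 at -2.19 (0.0497). H60b, a ligand of the receptor NKG2D, was the only gene with a positive difference among the 45, at 1.47 (adjusted p = 0.0489). It read 7.92 and 6.58 in P7 and adult cortex and 7.47 and 7.60 in callosum. Its interaction call was lost without any 1 of 10 of the 12 P7 and adult arrays. The fit of those 12 arrays alone, the replicate block and centring on array medians lost it too. So did the mean over probe sets and Xist and Kdm5d as covariates. Cd200r4 lost its call without any 1 of 11 of those arrays and in the fit of the 12 alone. Its call was also lost with the mean over probe sets and with an intensity trend and robust variances.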

How the results depend on the processing

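The count of genes called between P7 and adult cortex lay between 2113 and 2585 under the 9 alternatives that kept all 6 cortex arrays. The 2585 came from testing only the 11873 genes above the median level. The 2113 came from a fit of the 6 cortex arrays alone, which kept 1897 of the 2264 main calls (83.8%). When 1 cortex array was left out, the count lay between 1567 and 2117, and 68.5% to 80.3% of the calls were kept. The count of higher genes ranged from 561 to 1004 and of lower genes from 1006 to 1248 when an array was left out. After centring on array medians, 772 genes were called higher and 1493 lower, against 899 and 1365 in the main fit. The interaction count of 45 was 24 with only the 12 P7 and adult arrays, 85 with only genes above the median level, 77 with an intensity trend and robust setting, 72 with arrays of the same age and number as a random block, and 12 to 47 when an array was left out. The causes were not tested. Same-numbered arrays of P7 and adult cortex deviated together with correlations of 0.24, 0.13 and 0.05. Not every array correlated best with its own number, so the numbers were not taken as pairs. Between cortex and callosum, same-numbered arrays correlated at 0.13, 0.08 and 0.05 at P7 and at 0.30, 0.06 and 0.25 in the adult. Of the cortex arrays, only adult replicate 2 correlated better with another number there (0.20). The main interaction test took the regions as unpaired, and the 72 calls came from the fit with the random block. With the replicate block 2375 genes were called, 2199 of them shared. Of 212 called genes among those named, 176 kept their call under every alternative, 36 lost it without at least 1 array, and none reversed. Of 1170 list counts recomputed, 103 moved, and of 585 list medians 67 moved and 15 changed sign. Genes with signal near background are measured poorly.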

Other observations

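The families below were picked by gene symbol after their values were seen, so their counts are descriptions beside the 10.2% of all genes called, and no test is given. Other histone genes fell beside H1f5. The histone symbols taken opened with H1f, H2ac, H2bc, H3c or H4c, so linker histones of any class could enter. Of 29 such genes, 11 were called lower and none higher (37.9%, median -0.55), among them H2bc12 (-3.90), H1f1 (-3.13) and H2ac15 (-2.91). The histone gene H4f16, whose symbol lies outside this choice, was called higher (0.93). Histone genes are near-identical copies in part, so single members are uncertain. Of 8 genes for structural maintenance of chromosomes, 6 were lower, and of 17 nucleoporins 10 were lower (median -0.50). Lower calls were also made for 5 of 9 subunits of the CCT chaperonin, 9 of 38 proteasome subunits and 8 of 15 small nucleolar RNA host genes. Of 51 genes with an Eif symbol, which translation initiation factors share with others such as Eif4ebp2, 15 were lower. Psmb9 was the 1 proteasome gene called higher. In the other direction, 4 of 10 ARID chromatin factors and 4 of 16 genes of the phosphoinositide 3-kinase family were called higher and none lower. Of 1088 olfactory receptor genes, which microglia are not known to need, 14 were called (1.29%), all higher. Their median difference was 0.11, against 0.03 over all genes, so small positive list medians are to be read beside it.

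The microRNA gene Mir511 lies inside Mrc1, the mannose receptor gene, per the RefSeq annotation. It read 7.91, 7.43 and 7.20 at P7 and 4.54, 4.42 and 5.79 in the adult, a difference of -2.60 ± 0.34 (SE, n = 3 and 3, adjusted p = 3.05e-05 by limma). The ages did not overlap. Mrc1 fell by 4.23. The array does not tell the mature microRNA from its host transcript. The mature sequence is from RefSeq on GRCm38.p6, plus strand, with the seed (bases 2 to 8) in capitals.
mmu-miR-511-3p: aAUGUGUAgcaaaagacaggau

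Other genes with large falls, outside the lists, were the endocytic adaptor Dab2 (-2.71), the fatty acid-binding protein gene Fabp7 (-2.82), the microtubule regulator Stmn1 (-2.97), the transporter Slc43a3 (-2.87) and the filamin Flna (-1.88). Genes outside the lists that rose included the calpain Capn3 (1.72), Mlph (1.72), the lectin receptor Klrd1 (1.72), the tetraspanin Tspan13 (1.69), Cd34 (1.63) and Csf3r (1.28), the receptor of granulocyte colony-stimulating factor. The adult means of Fabp7 (4.61) and Stmn1 (4.64) and the P7 means of Klrd1 (5.12) and Mlph (5.51) lay under the array medians. The sizes of those differences depend on the background. Whether other cells in the sort contributed to these transcripts was not tested.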
